A study of Mus musculus with 2 samples.

Results

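The regions described here are the KDM4A ChIP-seq peaks of mouse chromosome 8, taken as every peak of the 2 deposited peak lists whose chromosome is given as chr8. They number 210 of the 1657 peaks in the list of the control library (12.7%) and 172 of the 1349 peaks in the list of the GPS2 knockdown library (12.8%). Peaks that overlapped by 1 bp or more, within or between the lists, were joined, which gave 264 merged peaks on chromosome 8 of 1910 in all, and 1537 on the other 18 autosomes. The lists were made from the same reads that are counted below. Peak numbers, list membership and read density inside peaks are therefore a description of what was listed, and no test is given for them.

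The cells were 3T3-L1, an established mouse preadipocyte line, and were transfected and then induced to differentiate into adipocytes. Control siRNA had been given to the cells of 1 library (siCTL) and siRNAs against GPS2 to the cells of the other (siGPS2). Both groups were otherwise treated alike per the labels, the day of differentiation is not given there, and no input library is used here. With 1 library per group there was no replicate check, each comparison is between these libraries and not between the conditions, and the level of GPS2 cannot be read from ChIP reads.

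KDM4A is a JmjC-domain enzyme that takes methyl groups off histone H3 lysines, and GPS2 belongs to the corepressor complex built around NCoR and SMRT. In ChIP-seq, DNA bound by a protein is pulled down with an antibody and sequenced, and a peak is a place where reads pile up over their surroundings. Mapping quality scores how surely the aligner placed a read: a read that fits several copies of a repeated sequence gets a low score, and a pile-up of such reads can hold DNA from more than 1 copy. A stretch of genome that is present in extra copies in the cells also gives more reads everywhere, in and out of peaks.

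After leaving out repeats of a position and strand, siCTL held 6559860 distinct reads and siGPS2 4940261. Chromosome 8 took 444384 of them (6.77%) in siCTL and 335672 (6.79%) in siGPS2. Of its reads, 85.6% in siCTL and 85.2% in siGPS2 had a mapping quality of at least 30, called high here, against 84.4% and 84.0% on the other autosomes. Ranges in parentheses after a share or ratio are 95% intervals unless said otherwise, and they cover counting error only, since the reads have no molecular identifiers. Genes near the peaks and sequences under them were not analysed here, because no genome or annotation of the build mm8 was used.

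Chromosome 8 was the autosome with the most listed peaks for its reads. The siCTL list held 47.3 peaks per 100000 chromosome 8 reads. On the other 18 autosomes the same quantity ran from 11.4 on chromosome 9 to 41.3 on chromosome 14, with a median of 22.4. The siGPS2 list held 51.2 per 100000 reads on chromosome 8, against 14.4 on chromosome 10 to 37.8 on chromosome 13 and a median of 23.1. After merging, chromosome 8 held 33.8 peaks per 100000 reads of both libraries, beside a median of 15.6 and a highest value of 24.9 on chromosome 14.

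The difference was widest in peaks made of well-placed reads. A merged peak was taken as mostly high when at least 50% of its reads from both libraries had high mapping quality, which held for 152 of the 264 on chromosome 8. Such peaks numbered 19.5 per 100000 reads on chromosome 8, where the other autosomes had a median of 4.67 and reached 11.5 on chromosome 15. The 112 remaining merged peaks came to 14.4 per 100000 reads, which was the fourth highest of the 19 autosomes, behind a highest value of 21.2 on chromosome 14 and beside a median of 7.69. Of all mostly high peaks in the siCTL list, 100 of 564 (17.7%) were on chromosome 8, and of those in the siGPS2 list 78 of 391 (19.9%). Chromosome 8 held 6.93% and 6.95% of all high-quality reads in the same libraries.

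**Figure D1:**
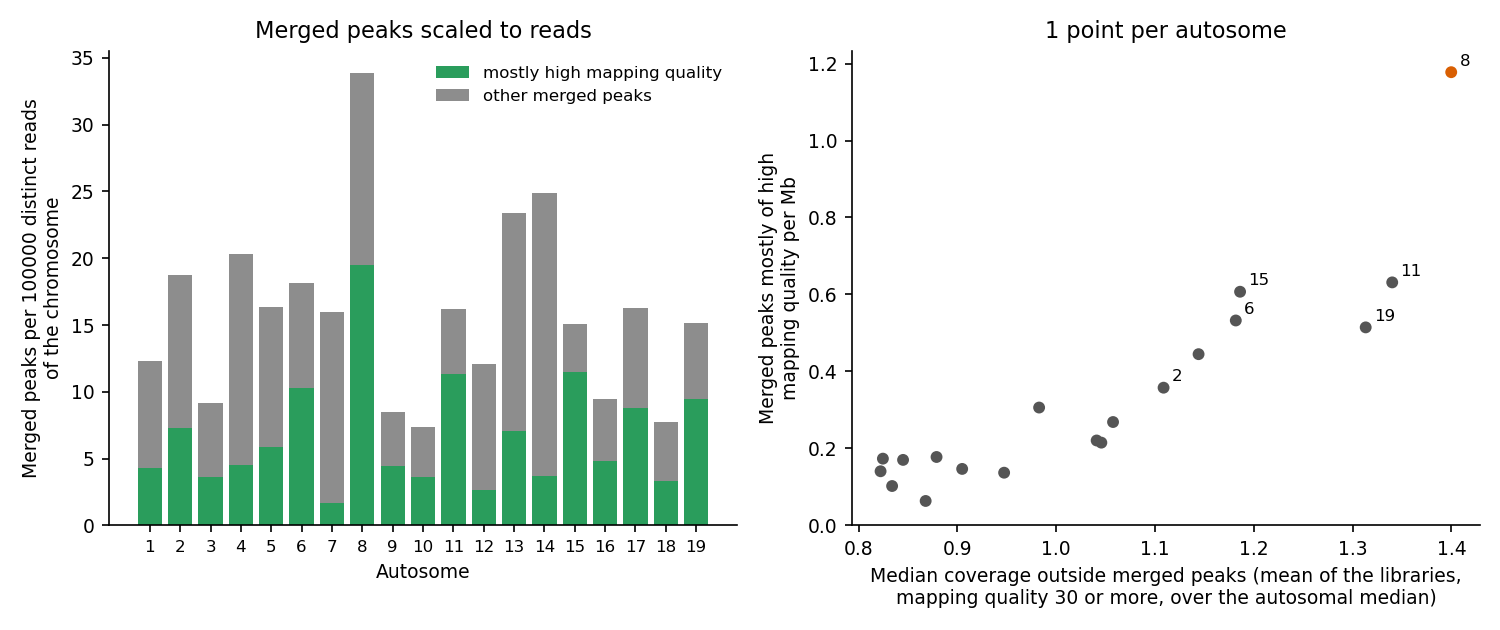
The left panel stacks merged peaks per 100000 distinct reads of each autosome by mapping quality, and the right panel sets mostly high merged peaks per Mb against median high-quality coverage outside peaks, with 1 point per autosome and chromosome 8 in orange. Chromosome 8 has the tallest bar (33.8, of which 19.5 are mostly high) and lies at the upper right end of the points.

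The mostly high peaks of chromosome 8 came late in the deposited lists. Place in the list ran against reads near the centre, with a Spearman correlation over the chromosome 8 peaks of −0.661 in siCTL and −0.683 in siGPS2, so late places hold weak peaks. The first chromosome 8 peak stood at place 31 in siCTL and 32 in siGPS2, with 5 and 4 among the first 100 places. The first mostly high one stood at place 513 in siCTL and 499 in siGPS2. In the first 50% of the siCTL list lay 14 of the 100 mostly high chromosome 8 peaks (14%), beside 25.1% of those on the other autosomes. For siGPS2 it was 10 of 78 (12.8%) beside 18.2%. The chromosome 8 peaks that were not mostly high came early, with 67.3% and 72.3% in the first 50%. Using only the first 50% of each list, chromosome 8 had 19.8 siCTL peaks per 100000 reads and was the third behind chromosome 5 (23.8) and chromosome 4 (19.9). In siGPS2 it had 23.2 and was the second behind chromosome 5 (23.6). In the second 50% it had 27.5 in siCTL, next to 28.4 on chromosome 14, and 28.0 in siGPS2, above all other autosomes.

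Reads outside the peaks were also denser on chromosome 8 than on any other autosome. In bins of 100 kb with the merged peaks removed, the median coverage of chromosome 8 was 1.38 times the median over the autosomes in siCTL and 1.38 times in siGPS2. The next highest was 1.25 on chromosome 19 in siCTL and 1.28 on chromosome 11 in siGPS2. With high-quality reads alone, chromosome 8 stood at 1.39 in siCTL and 1.41 in siGPS2, beside 1.32 and 1.36 on chromosome 11. Across the 19 autosomes, the high-quality coverage outside peaks and the number of mostly high merged peaks per Mb had a Pearson correlation of 0.891 in siCTL and 0.886 in siGPS2 (Spearman 0.907 and 0.900). Without chromosome 8 (n = 18) the Pearson values were 0.922 and 0.917. These are descriptions over points that share a library and its depth. For the merged peaks that were not mostly high, scaled to reads, the Pearson values were −0.249 and −0.231.

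Within coverage groups, chromosome 8 and the other autosomes lay closer together, with intervals apart in 3 of 5 groups, 1 of them from few peaks. To set chromosome 8 beside places of similar coverage, whole bins of 1 Mb were grouped by their high-quality coverage outside peaks relative to the autosomal median. Of the 129 bins of chromosome 8, 86 (66.7%) were at 1.2 or more, against 496 of 2268 (21.9%) on the other autosomes. At 1.4 to 1.6, chromosome 8 had 1.44 mostly high merged peaks per Mb (1.03 to 1.97, 27 bins) and the other autosomes 0.755 (0.624 to 0.905, 155 bins). At 1.2 to 1.4 the rates were 1.05 (0.650 to 1.61, 20 bins) and 0.432 (0.359 to 0.515, 285 bins). Below 1.0 they were 0.429 (0.157 to 0.933, 14 bins) and 0.126 (0.107 to 0.148, 1186 bins). The intervals did not overlap in these groups. Below 1.0, however, the chromosome 8 rate came from 6 peaks, 3 of them in 1 bin and all 3 members of the largest cluster. That group spans coverage from 0 to 1.0, and the intervals treat neighbouring peaks as independent. They overlapped at 1.0 to 1.2, with 0.483 (0.264 to 0.810, 29 bins) and 0.247 (0.209 to 0.291, 586 bins), and at 1.6 or more, with 1.85 (1.44 to 2.32, 39 bins) and 1.48 (1.18 to 1.84, 56 bins). At the other autosomes' rates for the same coverage groups, chromosome 8 would have held 95.8 mostly high merged peaks, and at their overall rate 35.2, where 152 were listed. The number of copies of chromosome 8 in the cells was not measured, and the part of coverage in the peak count was not tested.

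Along the chromosome the merged peaks were uneven. From the first 10 Mb to the last, successive stretches of 10 Mb held 9, 36, 31, 13, 15, 7, 6, 54, 27, 16, 12, 11, 26 and 1 merged peaks, the last stretch being incomplete. The high counts at 10 to 30 Mb, 70 to 80 Mb and 120 to 130 Mb hold 5 of the 6 largest clusters. Of the 129 whole bins of 1 Mb, 47 held no merged peak. The first merged peak was chr8:3278456-3280659 and the last chr8:131243887-131246886, which had 21 reads in siCTL and 20 in siGPS2, all of high quality.

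**Figure D2:**
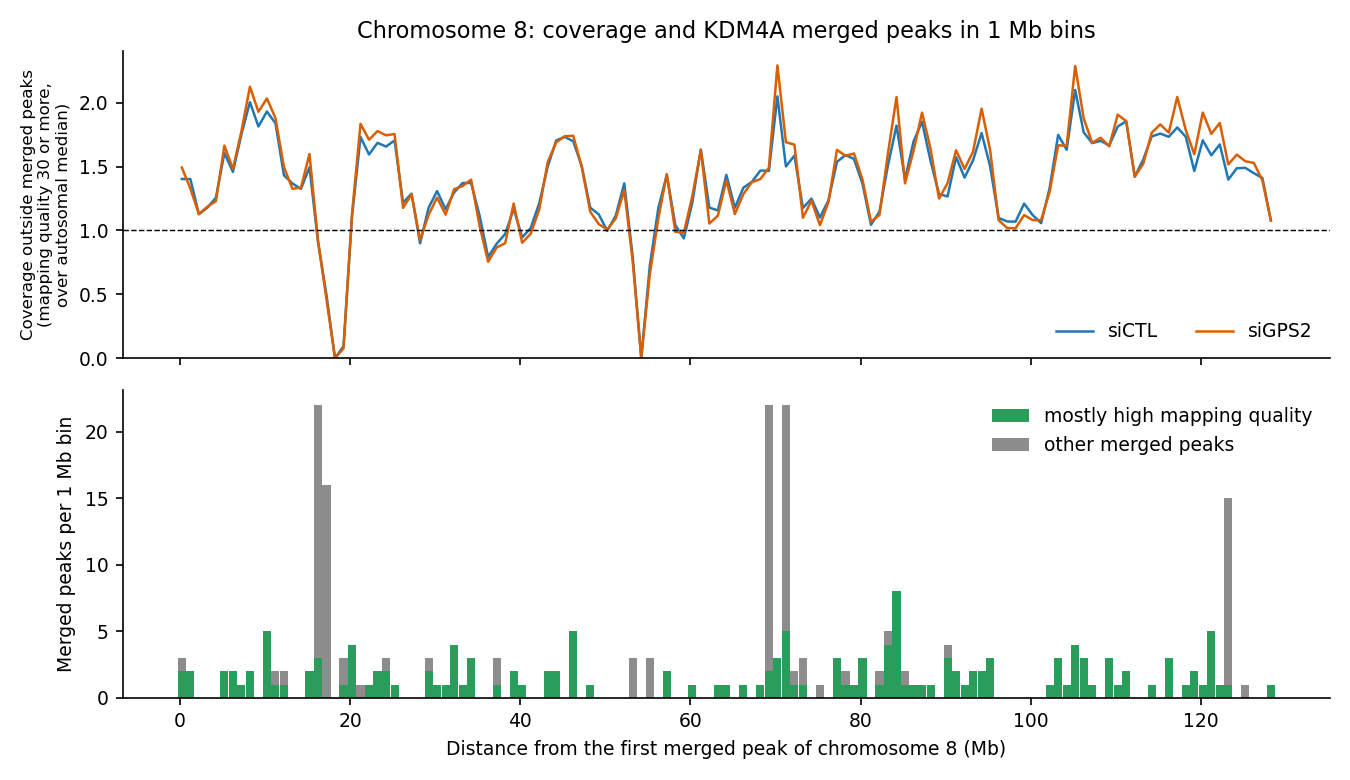
The upper panel gives high-quality coverage outside merged peaks in 1 Mb bins for both libraries, over the autosomal median (dashed line), against the distance from the first merged peak. The lower panel stacks the merged peaks of each bin by mapping quality. The tall grey bars are the large clusters, and mostly high peaks (green) are spread along the chromosome. Of the 129 bins, 47 hold no merged peak of either kind.

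Neighbouring merged peaks were often close. The distance from the end of 1 to the start of the next had a median of 107 kb over the 263 pairs, with quartiles of 9.71 and 620 kb. On the other autosomes the medians ran from 32.7 kb on chromosome 4 to 2181 kb on chromosome 18, with a median of 487 kb. Because chromosome 8 held more peaks, its mean spacing was also shorter, at 489 kb beside 988 to 3133 kb. Divided by that mean spacing, its median gap was 0.220, within the range of 0.0262 to 0.696 on the other autosomes and the 14th largest of 19. Of the 263 gaps, 67 (25.5%) were under 10 kb and 109 (41.4%) under 50 kb. The other autosomes' medians for these shares were 8.32% and 17.5%, and their highest 33.6% on chromosome 5 and 53.7% on chromosome 4.

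The mostly high merged peaks alone were also closer together than on most autosomes. Their median gap on chromosome 8 was 420 kb, where the other autosomes had a median of 2133 kb. Divided by their mean spacing it was 0.494, beside a median of 0.522. Long empty stretches were present too. The longest lay between 98778634 and 105673335, where 6895 kb held no peak of either list. Reads were not missing there: coverage was 1.13 times the autosomal median in siCTL and 1.10 times in siGPS2, from 19218 and 13980 reads. The next longest ran from 51162048 to 56346341 (5184 kb). Of 1290 bins of 100 kb on chromosome 8, 35 held no read at all. They formed unbroken runs at 20500001 to 22400000 and at 56700001 to 58300000, each inside a gap between merged peaks. In the plot of coverage along the chromosome they show as drops to 0.

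**Figure D3:**
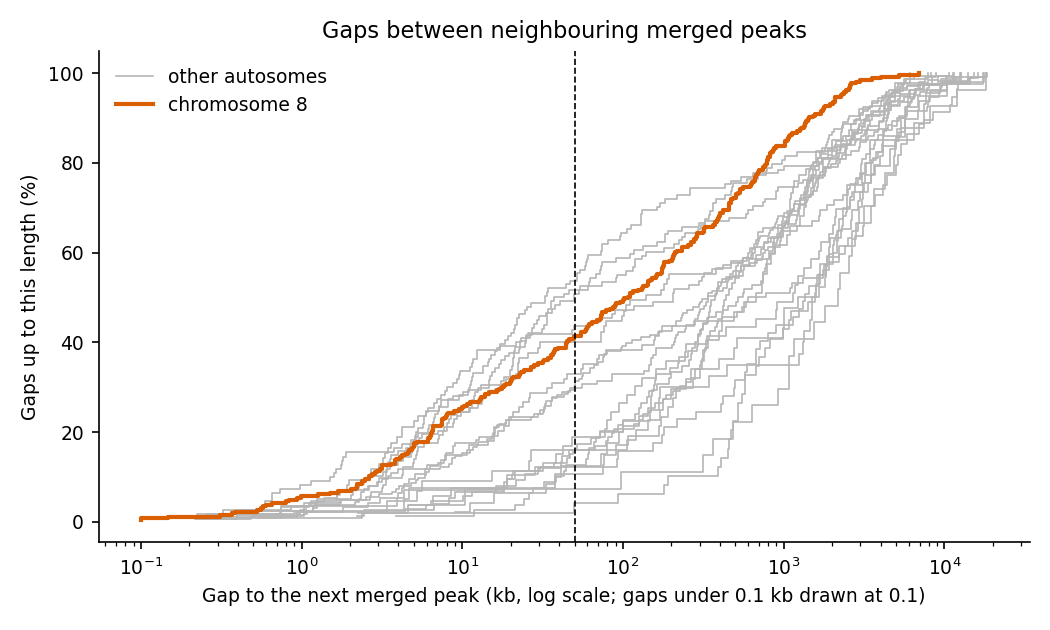
Each line gives, for 1 autosome, the share of gaps between neighbouring merged peaks that are no longer than the length on the logarithmic axis (kb), with the 50 kb cluster limit dashed. The chromosome 8 line (orange) crosses that limit at 41.4%, among the upper lines and below the highest, 53.7% on chromosome 4.

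Joining neighbours less than 50 kb apart put 139 of the 264 merged peaks (52.7%, 46.6 to 58.6) into 30 clusters and left 125 alone. The share was the sixth highest of 19 autosomes, whose median without chromosome 8 was 28.0% and whose highest was 68.0% on chromosome 4. Of the clusters, 19 were pairs, 5 had 3 members and 6 had 4 or more, and those 6 held 86 merged peaks (32.6%). The gaps nearest the limit were 49.7 kb, inside a cluster, and 54.8 kb, between clusters. Of these 6, 5 had at least 10 members, 82 in all, where 9 such clusters lay on 6 of the other autosomes.

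Clustered and lone peaks differed in how surely their reads were placed. In the 6 large clusters 8 of 86 merged peaks were mostly high, in the pairs and groups of 3 it was 38 of 53, and among lone peaks 106 of 125. The 6 clusters held 47.7% of all siCTL reads in chromosome 8 merged peaks and 47.9% of the siGPS2 reads. Of the reads in their peaks only 15% and 15.5% had high mapping quality, and 82.1% and 81.4% scored below 2. In the other chromosome 8 merged peaks 68.4% and 66.4% of reads were of high quality. By class, 30.3% of the mostly high merged peaks were in clusters, beside a median of 15.7% and a highest value of 63.0% on the other autosomes. Of the others 83.0% were, and the highest value elsewhere was 73.5%. Leaving out the 6 clusters brought the share in clusters to 29.8% (23.5 to 36.9). The other autosomes without their clusters of 4 or more had 20.3% (18.1 to 22.7), with a longer mean spacing over all merged peaks. Raising the gap limit to 100 kb joined the first and second cluster below into a run of 38 merged peaks over 775 kb, chr8:19681493-20456981.

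The largest cluster, chr8:19742008-20028222, had 24 merged peaks over 286 kb, a median of 5.19 kb apart. Its peaks held 1406 siCTL and 1149 siGPS2 reads, 10.1 and 11 times the autosomal median density. Between its peaks the coverage was 5.67 times the median in siCTL and 5.65 times in siGPS2, and in the 50 to 250 kb on either side 1.86 and 1.83 times. Over all reads, the space between the peaks of the largest cluster was thus itself denser than its sides. With high-quality reads alone, that space was at 0.829 times their autosomal median in siCTL and 0.869 times in siGPS2. A median of 13.7% of reads per peak had high mapping quality (range 0 to 66.7%). Of its 24 merged peaks 12 were in both lists, 7 in siCTL alone and 5 in siGPS2 alone. The ratio of siGPS2 to siCTL, scaled to library reads, was 1.09 (1.003 to 1.17) in its peaks and 0.990 (0.938 to 1.04) between them.

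Next to it lay chr8:20162439-20378361, with 10 merged peaks over 216 kb. Its peaks held 313 and 273 reads (ratio 1.16, 0.981 to 1.37), 6.35 and 7.41 times the median density. The space between was at 4.83 and 4.62 times, but at 0.853 and 0.775 times with high-quality reads alone. The median high-quality share was 10.8%. Only 2 of the 10 were in both lists, with 3 in siCTL alone and 5 in siGPS2 alone.

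A pair of clusters lay near 72 and 74 Mb. The first, chr8:72346992-72515415, had 20 merged peaks over 168 kb, 469 and 353 reads and a ratio of 0.999 (0.868 to 1.15). Peak density was 4.15 and 4.17 times the median, the space between 2.31 and 2.29 times, and the median high-quality share 8.50%. The second, chr8:74008789-74120677, had 15 merged peaks over 112 kb, 422 and 323 reads and a ratio of 1.02 (0.877 to 1.18). It was at 4.33 and 4.43 times the median in its peaks and 2.25 and 2.48 times between them. With high-quality reads alone, the space between peaks was below the median in both clusters. It was at 0.311 and 0.279 times in the first and at 0.397 and 0.491 times in the second. In both clusters the densities of the libraries lay close together. Both lists held 8 of the 20 and 9 of the 15 merged peaks.

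The cluster nearest the far end, chr8:126422414-126509356, had 13 merged peaks over 86.9 kb and had the highest ratio of the 6. It held 326 siCTL and 326 siGPS2 reads, which after scaling to depth is a ratio of 1.33 (1.14 to 1.55), with 10 of the 13 merged peaks above 1. Between its peaks, 538 and 515 reads gave 1.27 (1.12 to 1.44), so that the excess was not limited to the listed peaks. No read between its peaks had high mapping quality in either library, and 9 of its 13 merged peaks had none. The ratio rests on reads whose place within the genome is unsure. Among the smaller clusters, the pair at chr8:20437675-20456981 gave 1.36 (1.07 to 1.73) and the pair at chr8:56611712-56623129 gave 1.26 (1.02 to 1.55). Between the peaks the ratios were 0.95 (0.81 to 1.12) and 1.08 (0.94 to 1.25). Both merged peaks of the pair at 56611712 were in the siGPS2 list only, so their listing favoured a ratio above 1.

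The sixth cluster, chr8:87689653-87794260, differed from the other 5 in its reads. It held 4 merged peaks over 105 kb, a median of 29.7 kb apart and each in 1 list only, with a median high-quality share of 98.3%. Its peaks had 14, 18, 8 and 16 reads in siCTL and 15, 7, 17 and 10 in siGPS2. The ratio over all 4 was 1.16 (0.775 to 1.74), from 56 and 49 reads. Coverage between the peaks was 1.82 and 2.21 times the median, close to the 1.91 and 1.95 times on either side.

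**Figure D4:**
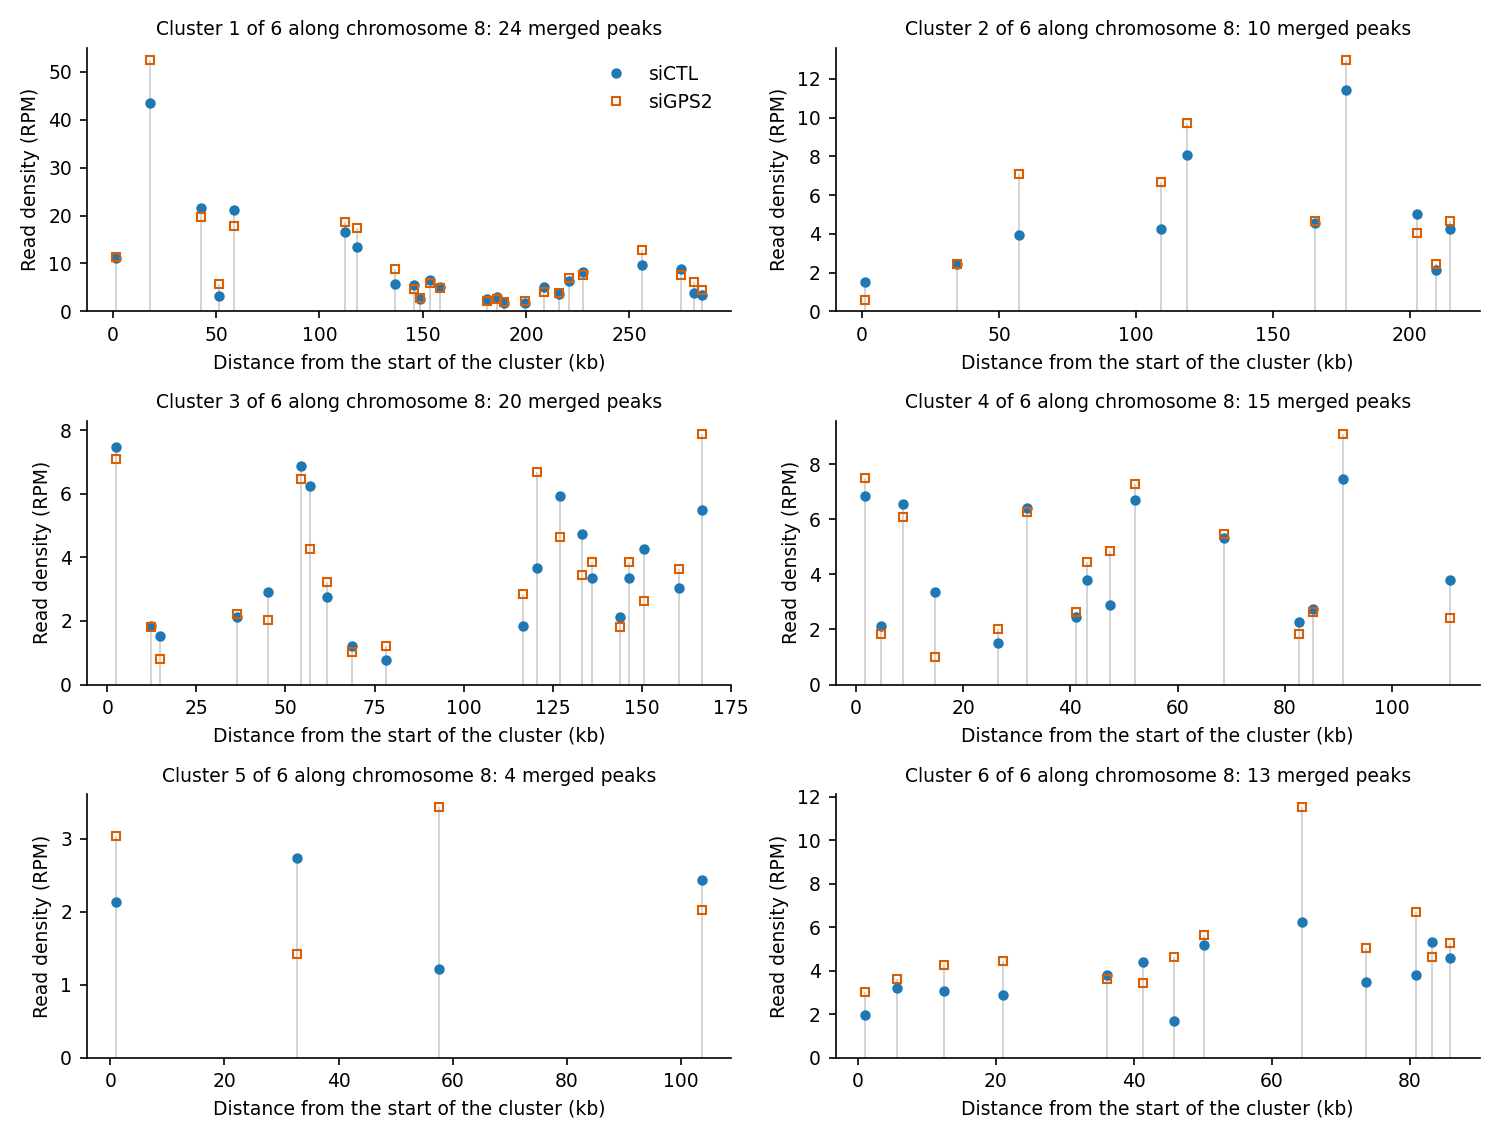
Each panel shows 1 of the 6 clusters of at least 4 merged peaks, in order along the chromosome, with the read density (RPM) of every merged peak in siCTL (circles) and siGPS2 (squares) against distance from the start of the cluster. Vertical scales differ between panels. In the last panel 10 of 13 merged peaks are higher in siGPS2, and the strongest of all, at 43.6 and 52.4 RPM, is in the first.

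Sharing between the lists differed more by mapping quality than by chromosome. Both lists held 73 of the 264 merged peaks (27.7%, 22.6 to 33.3), siCTL alone 111 and siGPS2 alone 80. On the other autosomes 528 of 1537 (34.4%, 32.0 to 36.8) were in both. Within the mostly high class the shares were 19 of 152 on chromosome 8 (12.5%, 8.15 to 18.7) and 97 of 627 elsewhere (15.5%, 12.9 to 18.5). Among the rest they were 54 of 112 (48.2%, 39.2 to 57.4) and 431 of 910 (47.4%, 44.1 to 50.6). The intervals overlapped over all merged peaks and in each class. Mostly high peaks made up a larger share on chromosome 8 (57.6%, 51.5 to 63.4, against 40.8%, 38.4 to 43.3). In the large clusters, peaks of 1 list usually had a peak of the other list close by: 20 of 28 siCTL-only and 16 of 22 siGPS2-only merged peaks had one within 10 kb. Outside them it was 5 of 83 and 3 of 58. Clusters were built from short gaps between peaks of either list, so this closeness is largely set by how they were made.

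Whether a peak listed in 1 library was also raised in the other can be read from reads its list did not use. For the 79 mostly high siCTL peaks absent from the siGPS2 list, siGPS2 reads within 150 bp of the centre were 2.25 times as dense (1.92 to 2.61) as those 2000 to 10000 bp away. For the 58 mostly high siGPS2 peaks absent from the siCTL list, siCTL reads were 2.59 times as dense (2.22 to 3.02). Both were above 1, and both were below the values in the library that listed the peaks, 4.08 (3.68 to 4.52) and 4.43 (3.87 to 5.05). These peaks were selected for not being listed in the other library. On the other autosomes the same measures in the unused library were 2.65 (2.46 to 2.86) and 2.67 (2.45 to 2.90), with intervals that overlapped those of chromosome 8.

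Strand placement was less distinct. Around a bound site, forward-strand reads lie upstream of the centre and reverse-strand reads downstream, so reads that face the centre should exceed 50%. In the unused library they were 53.5% (47.7 to 59.2) for siCTL peaks and 54.1% (48 to 60) for siGPS2 peaks on chromosome 8, from 286 and 259 reads. The intervals include 50%, so an excess was not detectable at this depth. On the other autosomes, with 1087 and 825 reads, they were 57.2% (54.3 to 60.1) and 57.8% (54.4 to 61.1). With reads pooled over peaks, the mostly high peaks of both lists were less raised on chromosome 8. There 21 siCTL peaks had 4.34 times the surrounding density in siCTL (3.58 to 5.22), beside 7.49 (7.06 to 7.94) for 114 elsewhere. These had been listed from the same reads. Their surroundings held 4.5 siCTL reads per kb and peak on chromosome 8 and 4.98 elsewhere. A few dense peaks can weigh heavily in a pooled value. Per merged peak of this class, siCTL reads had a median of 20 (highest 44) on chromosome 8 and 16 (highest 341) elsewhere.

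**Figure D5:**
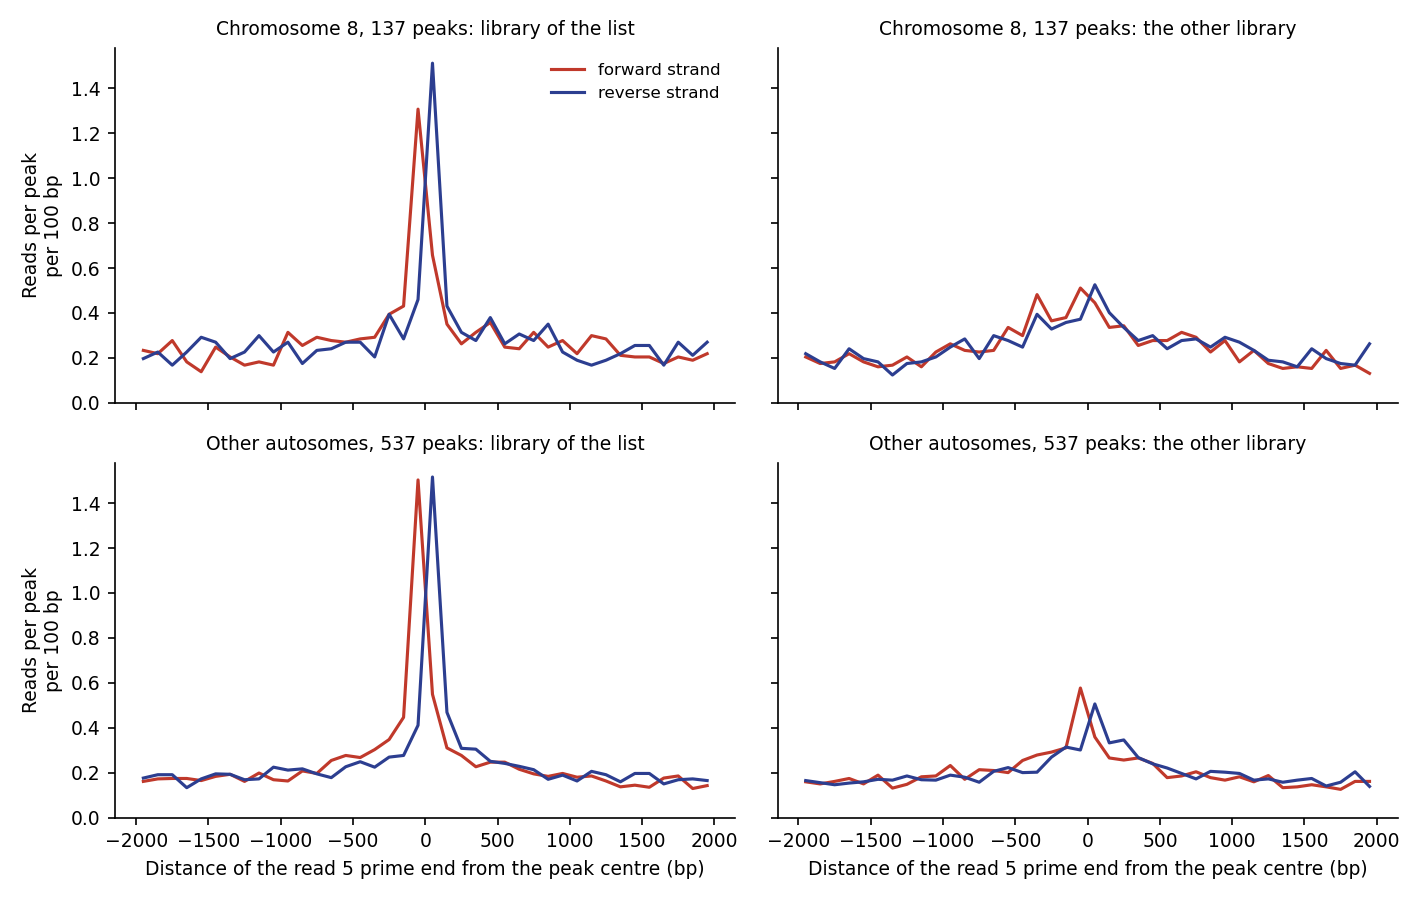
Reads per peak and 100 bp on each strand are plotted against distance from the centre of mostly high peaks held by 1 list only, for chromosome 8 (upper panels, 137 peaks) and the other autosomes (lower panels, 537 peaks), in the library of the list (left) and in the other library (right). In the other library the centre stays raised, 2.25 to 2.67 times over the reads 2000 to 10000 bp away, but is lower and broader than on the left.

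Over all 264 merged peaks, siGPS2 density was slightly above that of siCTL. The merged peaks held 6276 siCTL and 5159 siGPS2 reads, with a median per peak of 17.5 (range 4 to 286) and 14 (range 1 to 259). Scaled to the library, the ratio was 1.09 (1.05 to 1.13), beside 1.07 (1.05 to 1.08) in the merged peaks of the other autosomes. Outside the merged peaks of chromosome 8 it was 1.002 (0.997 to 1.006). Mostly high merged peaks gave 1.04 (0.978 to 1.11) from 2398 and 1878 reads, and the others 1.12 (1.07 to 1.18) from 3878 and 3281. The interval of the mostly high peaks included 1. Counting only the high-quality reads in all 264 merged peaks gave 1.07 (1.01 to 1.13), which did not.

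The ratio followed list membership, which the reads themselves decided. It was 1.09 (1.02 to 1.15) in peaks of both lists, 1.01 (0.946 to 1.08) in those of siCTL alone and 1.2 (1.12 to 1.29) in those of siGPS2 alone. For mostly high peaks of siCTL alone it was 0.959 (0.878 to 1.05) on chromosome 8 and 0.839 (0.800 to 0.879) elsewhere, and for those of siGPS2 alone 1.2 (1.08 to 1.33) and 1.28 (1.21 to 1.35).

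Few single merged peaks differed between the libraries. Of the 264, 138 had the 30 reads required, and 126 were too shallow to compare. A peak was called when its fold was at least 1.5 and its interval excluded 1. On chromosome 8, 1 was lower in siGPS2 (0.725%) and 7 were higher (5.07%), beside 1.5% and 2.76% of the 798 merged peaks tested over the genome, 4.26% in either direction. By fold alone, 9 (6.52%) were lower and 21 (15.2%) higher, beside 7.02% and 11.2%. The genome counts include chromosome 8: on the other autosomes alone, 11 of 604 were lower and 13 of 604 higher. On chromosome 8 the called share was thus below the background for lower peaks and above it for higher ones, from 1 and 7 peaks. The difference was not tested, and no correction for the number of peaks was made.

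The lower peak was the first of the chromosome, chr8:3278456-3280659, with 28 siCTL and 9 siGPS2 reads (ratio 0.427, 0.177 to 0.930) and 97.3% of high quality, and it stood in both lists. The next 4 by low ratio, starting at 49171630, 32652224, 93959452 and 42009678, had 22 to 25 siCTL and 8 or 9 siGPS2 reads, ratios of 0.478 to 0.520 and intervals that included 1. Among the higher peaks, chr8:109919460-109921459 went from 14 to 24 reads (2.28, 1.13 to 4.76), all of high quality, although only the siCTL list held it. The other mostly high one, chr8:36274841-36277311, had 20 and 28 reads (1.86, 1.01 to 3.48) and was in the siGPS2 list only.

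The remaining 5 lay in large clusters and were mostly of low mapping quality. In the cluster near 126 Mb were 3 of them: chr8:126467165-126469164 with 11 and 23 reads (2.78, 1.30 to 6.31), chr8:126485700-126487727 with 41 and 57 (1.85, 1.21 to 2.83) and chr8:126502076-126504568 with 25 and 33 (1.75, 1.01 to 3.07). The others were chr8:20218842-20220856 with 26 and 35 (1.79, 1.05 to 3.09) and chr8:72466685-72468684 with 24 and 33 (1.83, 1.05 to 3.23). The peaks starting at 72466685 and 126467165 were in the siCTL list only, although called higher in siGPS2. The peak starting at 126502076 was in the siGPS2 list only, and those starting at 20218842 and 126485700 were in both. The fifth highest ratio, at chr8:58430723-58432725, came from 13 and 18 reads (1.84, 0.852 to 4.08) and was not called. With high-quality reads alone, chr8:109919460-109921459 was the 1 merged peak called higher, and chr8:3278456-3280659 was again called lower. With siCTL thinned to the siGPS2 depth, that peak was not called (0.450, 0.180 to 1.03), and the higher peaks starting at 20218842, 72466685 and 126502076 were not either. Each of the 8 calls held under 3 to 6 of 8 other settings. With a minimum of 100 reads, which 16 of the 264 reached, none was called in either direction. This outcome was set in advance, since the deepest of the called peaks had 98 reads.

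The 10 merged peaks with the highest density were all mostly of low mapping quality, with 1.83 to 48.3% high-quality reads. The strongest, chr8:19758819-19761148 in the largest cluster, had 286 siCTL reads (43.6 RPM, reads scaled to library size) and 259 siGPS2 reads (52.4 RPM), a ratio of 1.2 (1.01 to 1.43), and 1.83% of high quality. Next were chr8:19783754-19785790 with 141 and 97 reads and chr8:19798256-19803031 with 139 and 88, which had ratios below 1 (0.913 and 0.841) with intervals that included 1. Outside the large clusters stood chr8:20437675-20440238 with 100 and 102 reads (1.35, 1.02 to 1.80), chr8:56611712-56613711 with 100 and 83, chr8:56621130-56623129 with 85 and 92 (1.44, 1.06 to 1.95) and chr8:58409754-58412450 with 73 and 59. The other 3 were chr8:19852755-19855793 with 109 and 92, chr8:19859399-19861398 with 88 and 86, and chr8:20338282-20340281 with 75 and 64. Over all 10 the ratio was 1.13 (1.04 to 1.23), from 1196 and 1022 reads. In 3 the interval lay above 1 and in none below. Of the 10, 5 were in 1 list only although both libraries had many reads there.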

How the data were processed

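Reads and peaks of 2 KDM4A ChIP-seq libraries, 1 per group, were used. The submitters' processing notes name Bowtie, HOMER and mm8 without roles. Versions and read filters are not given in the sources used here. The deposited reads carry a mapping quality score (0 to 42). The deposited peak lists hold only other values, the coordinates of peaks 2000 bp wide, 1 list per library, unscored and without a stated base. Starts were taken to count from 0 and are printed counting from 1.

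Lines cut short (3 in siCTL, 6 in siGPS2) and repeats of a position and strand (0.137% and 0.138%) were left out. Reads were counted by their 5 prime end and divided by each library's distinct reads (RPM). Where intervals are given, they are exact conditional (Clopper-Pearson) for ratios, Wilson for shares, and exact Poisson or conditional for densities and rates. Described singly were the clusters of at least 4 merged peaks, the 10 densest merged peaks, the 5 lowest and 5 highest ratios at 30 reads or more, every called peak, the longest gap, and the first and last peak. The members, lists and limits were chosen with earlier results of these data known. The coverage groups, the split of the lists, the counting of each cluster once and the count without the large clusters were chosen after seeing the data. Counting and calling were tested on simulated data. Python 3.11.15, numpy 2.4.6, scipy 1.17.1 and pandas 2.3.3 were used.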

Additional observations from a re-analysis of the deposited data

Results flagged for a closer look

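The unplaced contig chr8_random, whose sequence is assigned to chromosome 8 without a position, lies outside the comparisons above. It held 6 merged peaks, from 5 peaks of each list, with 153 siCTL and 129 siGPS2 reads, which was 10.1% and 11.4% of the contig's reads. The ratio was 1.12 (0.879 to 1.42), and a median of 7.52% of reads per merged peak had high mapping quality. No control library is used here to set these counts against, and their origin was not tested.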

How the results depend on the processing

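Of 53 values recomputed under other settings, 26 were kept and 27 moved. Shares, rates, gaps and coverage were kept when inside the first interval, and call counts when within 1.5-fold. The read density ratio was kept when its direction and its interval against 1 stayed the same. Some settings can only lower a value, such as a shorter gap limit, 50% of a list over all reads, or counting each cluster once. The share of merged peaks in clusters (52.7%) was 34.5%, 42.8% and 63.3% at gap limits of 10, 25 and 100 kb, 38.3% for clusters of at least 3, 46.1% with the siGPS2 list alone, 70.6% with the first 50% of each list and, added later, 29.8% without the 6 large clusters. The median gap (107 kb) was 18.3 kb with the first 50%, and 175 and 187 kb with the siCTL and siGPS2 lists alone. With the first 50%, chromosome 8 took 10.6% of the siCTL list, 40.2% of merged peaks were in both lists, and there were 19.8 and 23.2 peaks per 100000 reads. Dividing all chromosome 8 peaks of each list by high-quality reads alone gave 55.2 and 60.1 per 100000, in place of 47.3 and 51.2. Counting each cluster once, added later, gave 19.9 per 100000 in place of 33.8, still the highest of 19 autosomes. Mostly high peaks were 51.5% at a quality of 40, 46.6% at an 80% share and 50.8% within 150 bp of the centre. Lower calls were 0 within 150 bp, 3 at 20 reads and 0 at 100. Higher calls were 1 with high-quality reads, 1 within 150 bp, 0 at 100 reads and 2 at 2-fold. The read density ratio stayed between 1.07 and 1.09. Depth was the limit for single peaks: 126 of 264 had under 30 reads. No paired analysis was possible because each group has 1 library.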
